A study of Mus musculus with 3 samples.

Results

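The 32 genes described here are Myc and 31 genes whose proteins build ribosomes in the nucleolus. They were chosen by symbol from the 31053 genes of the expression matrix, and all 32 were found. Each was followed over the 3470 cells that the authors kept, across surface-tag gates, cell cycle classes and the genotypes. The rule for choosing them used no measured value, but they were listed with earlier results of these data known.

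The cells were LSK cells, bone marrow cells sorted as lineage-negative, Sca1-positive and Kit-positive, which hold the stem cells and multipotent progenitors of blood. Of the 4 mice, 2 were labelled Helios-deficient and 2 WT (wild-type); the labels give neither the allele, the strain, the age nor the sex. Helios, the product of Ikzf2, is an Ikaros-family zinc finger protein. Cells of the 4 mice were stained with barcoded antibodies against CD41, CD48, CD150 and CD135 (Flt3), marked with 1 hashtag per mouse, pooled, and run together in 1 droplet capture with a 3 prime RNA library.

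Ribosome production begins with transcription of the ribosomal DNA by RNA polymerase I. Small nucleolar ribonucleoproteins (snoRNPs) modify and help to cut the transcript, and separate sets of assembly factors mature the small and large subunits. Myc, a basic helix-loop-helix transcription factor that pairs with Max, binds the E-box and is known to raise the expression of many of these genes in growing cells. In blood formation, stem cells with low CD48 and high CD150 are mostly quiescent, while CD48-positive progenitors divide more often.

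Mice were represented by 557 to 1175 cells and by 5729987 to 10317599 UMIs (unique molecular identifiers, each standing for 1 captured RNA molecule). Levels are given in CPM, the UMIs of a gene relative to all UMIs of a mouse, or of a class of its cells, in the usual parts per 1000000. Kit was at 82.5 to 94.8 CPM and Ly6a, which encodes Sca1, at 128 to 157 CPM in the 4 mice. Ikzf2 RNA, at 73.6 and 82.7 CPM in the mice labelled Helios-deficient, was not lower there than in the others (70.6 and 67.7 CPM); a 3 prime count outside a deleted part does not check the label, and the deleted part is not stated. Nothing in the labels says more of how the mice were kept or matched, so p-values cover these 4 mice only. Those of the genotype comparison measure the spread between mice of the same genotype. Comparisons between classes of cells had the mouse as a covariate. Their p-values measure how the class difference varies among the 4 mice. All tests below summed UMIs per mouse, and adjusted p-values are those of edgeR's quasi-likelihood test after Benjamini-Hochberg adjustment over all genes tested, with 0.05 as the threshold.

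The 32 genes lie on 16 chromosomes of the mouse build GRCm38.p6, so they are not a genomic cluster. Myc lies at chr15:61985341-61990361, and Npm1 at chr11:33152498-33164142. In 6 of the 32 spans RefSeq places snoRNA genes, 18 in all. Nop56 (chr2:130274367-130279313) holds 5, Snord110 and Snord57 among them. Nop58 (chr1:59684961-59711510) holds 4, with Snord70 and Snord11. Gnl3 and Wdr43 hold 3 each, Ncl holds 2 (Snora75 and Snord82) and Dkc1 holds 1. Of all 21896 protein-coding genes in that annotation, 1.7% have a snoRNA gene inside their span, against 18.8% of the 32. A poly(A)-primed 3 prime library counts the host messenger RNA, not the snoRNAs.

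RefSeq promoter windows (GRCm38.p6, 250 bases before to 50 after a transcript start) were at hand for 26 of the 32 genes; Myc, Npm1, Fbl, Bop1, Rrp12 and Rrs1 had none there. The E-box CACGTG, which reads the same on both strands and was the one motif searched, was found in 6 of the 26 genes (23.1%). It was found in 18 of 96 other ribosome biogenesis genes (18.8%), in 8.09% of all genes with a window and in 7.15% of all windows. The matches are shown with up to 12 bases on each side, on the gene's strand, because this is the element that Myc and Max are known to bind. Capitals mark the E-box, and a match is no evidence of binding. The window ends cut the Mybbp1a and Utp20 stretches short. Positions are counted from the start site on which each window rests, with base 1 at that site. For Wdr43 and Nle1 that site lies 37 and 51 bases inside the annotated gene, and for the other 4 it is the gene's outer end.
Nop2, chr6:125131811-125131840, plus strand, 60 bases before the window's start site: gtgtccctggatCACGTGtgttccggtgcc
Pes1, chr11:3963965-3963994, plus strand, from base 3: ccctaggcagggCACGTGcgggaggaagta
Wdr43, chr17:71616220-71616249, plus strand, from base 18: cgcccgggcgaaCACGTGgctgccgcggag
Nle1, chr11:82908355-82908384, minus strand, from base 24: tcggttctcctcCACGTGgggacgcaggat
Utp20, chr10:88826765-88826789, minus strand, from base 38: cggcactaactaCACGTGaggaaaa
Mybbp1a, chr11:72441355-72441376, plus strand, from base 41: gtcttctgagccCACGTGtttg

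The members' windows held a median of 21 CG pairs, against 7 over all windows. The 100 bases before the start are shown for Nolc1 and Nhp2, the members that rose most in cycling cells among those whose stretch lay outside the annotated gene; capitals mark each CG pair. Neither stretch holds the E-box. The first has 9 CG pairs and a GC content of 65%, and the Nhp2 stretch has 4 and 47%.
Nolc1, chr19:46075747-46075846, plus strand: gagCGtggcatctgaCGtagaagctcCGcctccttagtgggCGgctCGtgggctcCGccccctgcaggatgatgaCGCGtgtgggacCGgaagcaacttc
Nhp2, chr11:51619673-51619772, plus strand: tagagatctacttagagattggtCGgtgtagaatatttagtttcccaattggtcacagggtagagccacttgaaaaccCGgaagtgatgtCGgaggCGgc

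The first comparison asked how the genes differ between the phenotypic stem cell gate and CD48-high progenitors. CD48-low CD150-high cells had at most 80 CD48 tag UMIs and more than 88 CD150 tag UMIs, and CD48-high cells had more than 151 CD48 tag UMIs; these cuts are the tertiles of all kept cells. From the first gate to the second, 10 of the 32 genes rose and 0 fell, while 13.3% of the 9012 genes tested rose. The median of the 32 was 0.18 on the log2 scale, against -0.01 over all genes tested. Of the 17 stem cell markers tested, 17 fell, and 7 of 7 lymphoid and 6 of 7 myeloid progenitor markers rose. The megakaryocyte markers Pf4, Itga2b, Gp1bb and Gp9 were lower in CD48-high cells of each mouse. They summed to 431 and 925 CPM in the stem cell gate of the Helios-deficient mice and 296 and 646 CPM in the wild-type mice. In CD48-high cells they summed to 58.5 and 150 CPM and to 72.7 and 330 CPM. The part of this difference in the rises was not tested.

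Myc had the largest rise among the 10. It was at 121, 121, 140 and 113 CPM in the CD48-low CD150-high cells of Helios-deficient mice 1 and 2 and wild-type mice 1 and 2, and at 198, 190, 173 and 167 CPM in their CD48-high cells. Every CD48-high value lay above every value of the stem cell gate. The log2 difference was 0.58 (SE 0.09, adjusted p = 4.6e-08), a 1.5-fold rise.

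Among the genes of ribosomal DNA transcription, 2 of 4 rose. Mybbp1a, a nucleolar regulator of polymerase I transcription, went from 81.6, 61.7, 65.2 and 70.3 CPM to 101, 89, 87.8 and 93.5 CPM in the same order of mice, without overlap (log2 difference 0.47, SE 0.11, adjusted p = 0.00063). Pa2g4, an ErbB3-binding protein of the nucleolus, went from 444, 344, 342 and 308 CPM to 493, 408, 387 and 380 CPM. It was higher in each mouse, but the gates overlapped because the stem cell gate of Helios-deficient mouse 1 was high (0.26, SE 0.06, adjusted p = 0.00036). Polr1a and Polr1b, which encode the core subunits of polymerase I, had log2 differences of 0.05 and 0.01 and did not pass.

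The box C/D snoRNPs carry out 2'-O-methylation of ribosomal RNA, and 1 of their 4 genes rose. Fbl, the methyltransferase fibrillarin, was at 259, 290, 321 and 281 CPM in the stem cell gate and at 396, 370, 345 and 351 CPM in CD48-high cells, with no overlap (0.37, SE 0.07, adjusted p = 5.3e-06). Its partners Nop56 and Nop58, which hold the complex together, had values of 0.09 and 0.15 and did not pass, nor did Rrp9 (0.12), a protein of the U3 particle.

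In the box H/ACA group, which makes pseudouridine, 3 of 5 genes rose. Nhp2, a core protein, was at 284, 247, 261 and 255 CPM and then at 387, 327, 305 and 306 CPM, again with the gates apart (0.37, SE 0.07, adjusted p = 3.2e-06). Nolc1, which encodes the chaperone Nopp140, was at 106, 118, 115 and 83.4 CPM and then at 165, 128, 121 and 137 CPM (0.37, SE 0.1, adjusted p = 0.0017). Its gates did not overlap, but they nearly met (118 and 121 CPM). Nop10, the smallest core protein, rose by 0.13 (SE 0.04, adjusted p = 0.017) with overlapping gates. The pseudouridine synthase Dkc1 (0.19) and Gar1 (0.09) did not pass.

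None of the 5 small subunit genes Utp20, Heatr1, Wdr43, Rcl1 and Rrp12 passed; their log2 differences ran from 0.10 to 0.59. Utp20, Heatr1 and Rrp12 are low, at mean levels of 11.3 to 15.6 CPM over all cells, and Utp20 had the widest error (0.59, SE 0.3). Of the 9 large subunit genes 1 rose. Wdr12, which works with Bop1 and Pes1 in the PeBoW complex, was at 124, 118, 103 and 110 CPM and then at 162, 138, 136 and 124 CPM (0.34, SE 0.09, adjusted p = 0.0024). It was higher in each mouse, and the gates met at 124 CPM. Bop1 (0.03) and Pes1 (0.23) did not pass, nor did the ribosomal RNA methyltransferase Nop2 (0.22), the helicase Ddx18 (0.12) or Rrs1 (0.22), which helps to place the 5S particle.

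The members that lay against the direction of most were all large subunit factors. Nle1, encoding Notchless, a factor of late pre-60S remodelling, was at 44.4, 42.9, 38 and 42.5 CPM in the stem cell gate and at 35.1, 28.7, 28.5 and 35.6 CPM in CD48-high cells. All 4 mice had the lower value in CD48-high cells, but the test did not pass (-0.37, SE 0.15, adjusted p = 0.065). Ebna1bp2 went from 183, 163, 197 and 162 CPM to 182, 154, 150 and 152 CPM (-0.12, adjusted p = 0.32). Nip7 went from 94, 100, 105 and 116 CPM to 121, 87.2, 88 and 93 CPM (-0.09, adjusted p = 0.58), and Helios-deficient mouse 1 alone was higher in CD48-high cells.

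Of the 4 abundant nucleolar proteins 2 rose. Npm1 (nucleophosmin) was at 2033, 1942, 1834 and 1783 CPM and then at 2312, 2332, 2160 and 2086 CPM, with the gates apart (0.27, SE 0.03, adjusted p = 3.5e-10). Ncl (nucleolin) was at 917, 900, 882 and 725 CPM and then at 1140, 895, 938 and 969 CPM (0.23, SE 0.05, adjusted p = 0.00012). Ncl was not higher in CD48-high cells of Helios-deficient mouse 2. Gnl3 (nucleostemin, 0.06) and the helicase Ddx21 (0.27, adjusted p = 0.055) did not pass.

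The gates differed in depth and in cycling as well. Median UMIs per cell were 6207 to 7777 in the stem cell gate and 10081 to 14260 in CD48-high cells, and S-high or G2M-high cells (defined below) made up 20.7% to 30.3% of the first and 48.5% to 64.7% of the second. When CD48 and CD150 tertiles were taken within quintiles of RNA UMIs, Myc (0.54) and Npm1 (0.14) were the 2 members that rose, Bop1 (-0.40) and Ebna1bp2 (-0.20) fell, and the median of the 32 was 0.02; of the 8590 genes tested in that fit, 9.29% rose and 9.29% fell. Markers of other cell types differed between the gates as well, and their part in the result was not tested beyond leaving such cells out. Of the macrophage list, 10 of 10 markers had a UMI in both gates. They summed to 1152 to 1556 CPM in the stem cell gate and 596 to 838 CPM in CD48-high cells. Apoe made most of that difference, at 787 to 1125 CPM against 246 to 400 CPM, while Lyz2 overlapped (328 to 424 and 280 to 413 CPM). Each other macrophage marker was at most 8.18 CPM in the stem cell gate and 14.5 CPM in CD48-high cells. Of these, Csf1r was higher in CD48-high cells (3.99 to 14.5 against 0 to 1.64 CPM), and the rest overlapped. Igkc, an immunoglobulin light chain gene, was at 21.3 to 44.4 CPM in the stem cell gate and at 27 to 9102 CPM in CD48-high cells, the highest value coming from 1 mouse. Nkg7 was at 58.6 to 86.7 CPM in the stem cell gate and at 332 to 371 CPM in CD48-high cells. Without it, the T and NK cell list summed to 3.27 to 8.87 CPM and 3.77 to 13.5 CPM. In that sum Trbc2 was higher in CD48-high cells (2.61 to 8.47 against 0 to 2.17 CPM). Klrb1c was lower there (1.1 to 1.99 against 3.26 to 8.87 CPM). Cd3d and Ncr1 were at 0 in the stem cell gate and at most 2.49 CPM in CD48-high cells, and Cd3e and Cd3g were at 0 in both. In all, 85 cells held 3 or more UMIs of a shorter list of such markers. Those shorter lists had no Apoe, Lyz2, Csf1r, Igkc or Nkg7. Without these cells, 11 members rose and 0 fell, while 13.4% of all genes tested in that fit rose.

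**Figure D1:**
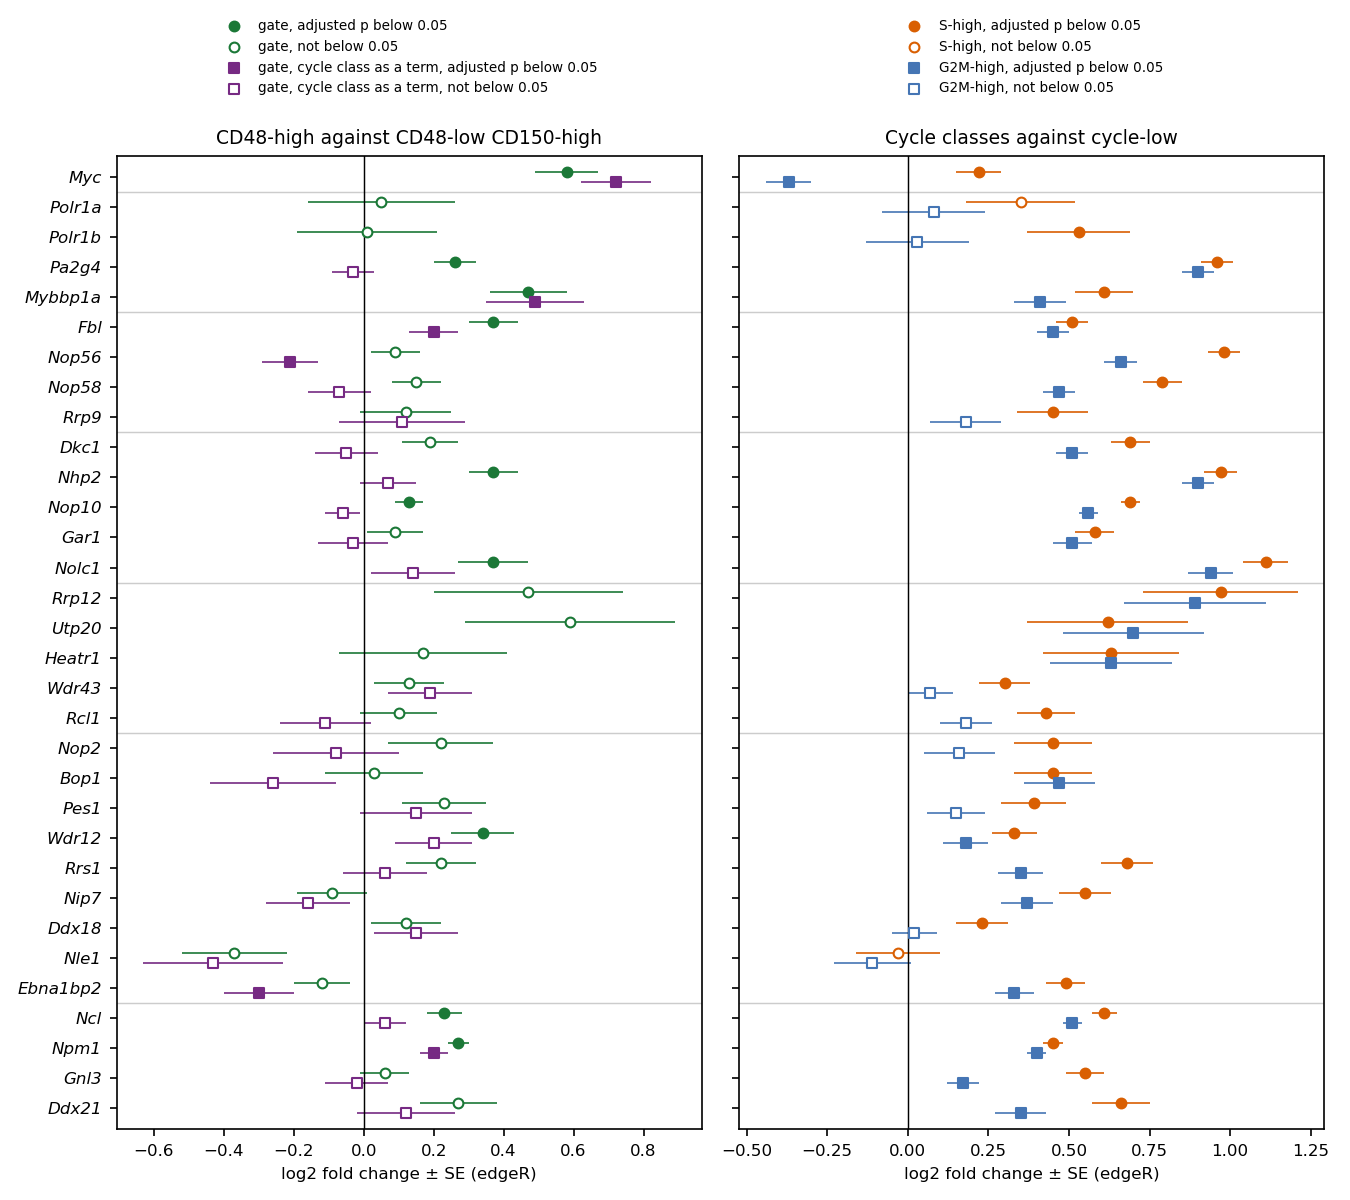
Log2 fold changes with standard errors (edgeR) of the 32 genes, grouped by role with grey lines between the groups. Left, CD48-high over CD48-low CD150-high cells without (circles) and with (squares) the cycle class as a term, where 5 low genes were not tested in the second fit; right, S-high (circles) and G2M-high (squares) over cycle-low cells. Filled symbols passed an adjusted p of 0.05; Myc is the member that passed on opposite sides of 0 in the S-high and G2M-high comparisons.

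CD48 was also taken in quintiles. In the lowest to the highest quintile of the CD48 tag, Myc was at 141, 157, 187, 200 and 204 CPM in Helios-deficient mouse 1, at 129, 148, 149, 196 and 183 CPM in Helios-deficient mouse 2, at 161, 183, 244, 185 and 172 CPM in wild-type mouse 1, and at 127, 154, 202, 197 and 153 CPM in wild-type mouse 2. Myc was thus highest in the third quintile in both wild-type mice and in the 2 upper quintiles in both Helios-deficient mice; this difference in shape was not tested. Npm1 was highest in the top quintile in all 4 mice, at 2443, 2352, 2236 and 2094 CPM, from 1854, 1882, 1847 and 1821 CPM in the lowest.

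**Figure D2:**
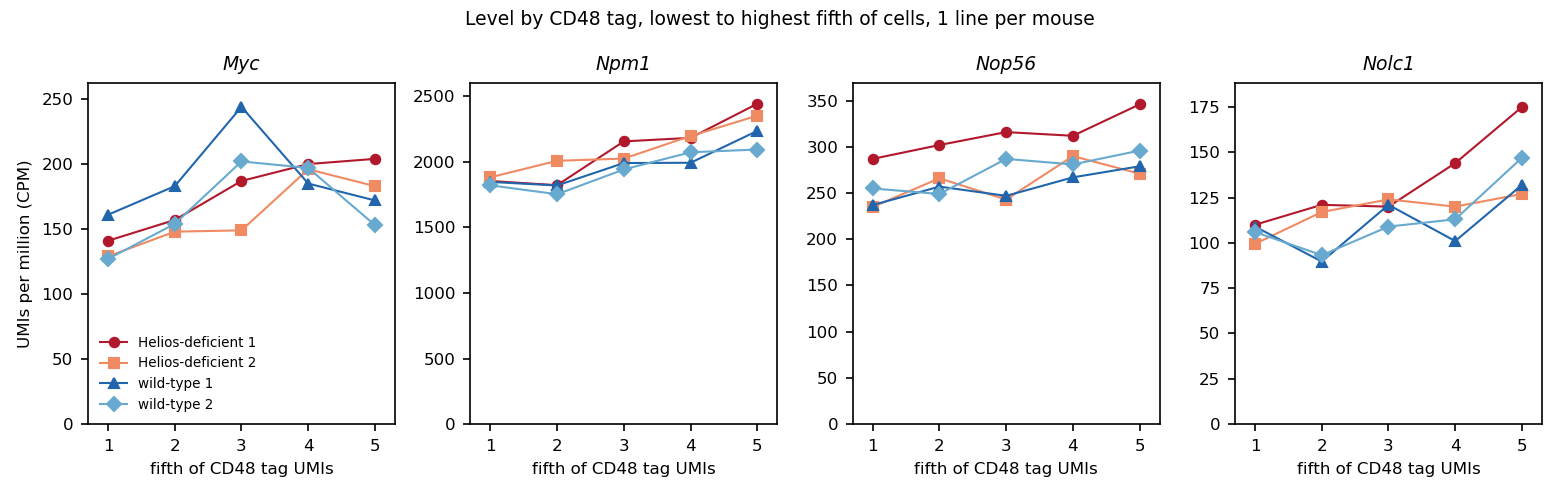
CPM of Myc, Npm1, Nop56 and Nolc1 (y axis, from 0) in each quintile of CD48 tag UMIs over all kept cells (x axis, lowest to highest), with 1 line per mouse and no error bars. Npm1 is highest in the top quintile in each mouse, while Myc peaks in the third quintile in the wild-type mice.

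With the cells split further by CD150 and CD135, Myc was lowest in CD48-low CD150-high cells, at 124 CPM ± 11.6 (SD, n = 4). It was at 162 ± 18.4 CPM in CD48-low cells with less CD150, where each of the 4 mice exceeded its own stem cell gate value, at 191 ± 26.5 CPM in CD48-intermediate cells, and at 158 ± 18.2 CPM in CD48-high CD150-high cells. The CD135 split of CD48-high cells with less CD150 was narrow, at median tag UMIs of 46 to 47 against 35 to 37. These cells had 195 ± 19.1 CPM of Myc when CD135 was high and 193 ± 29.5 CPM when it was lower. Neighbours in this order overlapped, the stem cell gate (113 to 140 CPM) and CD48-high CD150-high cells (138 to 181 CPM) included. Without Myc, the other 31 genes had another order: they made up 0.752%, 0.701%, 0.68% and 0.639% of all UMIs in the stem cell gate and 0.679%, 0.63%, 0.649% and 0.661% in CD48-low cells with less CD150. That share was lower than in the stem cell gate in 3 of 4 mice, all but wild-type mouse 2.

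Levels by lineage transcripts are given as a description. Cells thinned to 3000 UMIs were classed where at least 5 of them came from 1 marker list. Myc was at 183 to 239 CPM in cells with lymphoid transcripts, 180 to 223 CPM with myeloid transcripts, 148 to 180 CPM with none and 115 to 141 CPM with megakaryocyte transcripts. Npm1 was highest in the 4 to 12 cells per mouse with erythroid transcripts, at 3816, 3654, 2882 and 2592 CPM, against 1862 to 2302 CPM over the other classes and mice.

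The next comparison set the genes against the cell cycle. Each cell was thinned to 3000 UMIs. Cycle-low cells had at most 9 UMIs of the S and G2/M lists together, G2M-high cells had more than 12 of the G2/M list, and S-high cells had more than 13 of the S list among the rest; no member is in either list. S-high cells made up 14.2% to 15.8% and G2M-high cells 16.8% to 23% of each mouse's cells.

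From cycle-low to S-high cells, 30 of the 32 genes rose and 0 fell, against 23.6% of the 9672 genes tested that rose. Their median was 0.55, against -0.02 over all genes and 0.30 over 113 other ribosome biogenesis genes, of which 58 rose and 3 fell. Cytosolic ribosomal protein genes, the end products of the pathway, had a median of 0.00, with 23 of 77 higher and 19 lower. Of 30 Myc targets outside the nucleolus 27 rose and 0 fell, with a median of 0.80 and with Ran at 1.23.

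Nolc1 rose most. It was at 82.9, 74.3, 76.1 and 82.2 CPM in cycle-low cells and at 184, 162, 155 and 155 CPM in S-high cells (log2 difference 1.11, SE 0.07, adjusted p = 1.5e-26), about 2.16-fold. Nop56 was at 209, 188, 178 and 210 CPM and then at 397, 348, 351 and 384 CPM (0.98, SE 0.05, adjusted p = 2.4e-33). Nhp2 was at 217, 161, 186 and 210 CPM and then at 405, 345, 353 and 344 CPM (0.97, SE 0.05, adjusted p = 1.3e-31). For these 3 snoRNP genes the lowest S-high mouse stood well above the highest cycle-low mouse. Pa2g4 was at 294, 238, 232 and 250 CPM and then at 531, 447, 462 and 436 CPM, also without overlap (0.96, SE 0.05, adjusted p = 3.3e-35). Nop58 was at 181, 177, 142 and 169 CPM and then at 296, 256, 269 and 275 CPM (0.79, SE 0.06, adjusted p = 9.6e-24). Rrp12, which acts in export and late maturation of the small subunit, was at 13.7, 9.23, 7.1 and 5.3 CPM and then at 19.3, 13.3, 17 and 11.9 CPM (0.97, SE 0.24, adjusted p = 0.00051). Its classes overlapped, and its sums held as few as 12 UMIs.

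By role, all 4 box C/D genes, all 5 box H/ACA genes, all 5 small subunit genes and all 4 abundant nucleolar genes rose, with medians of 0.65, 0.69, 0.62 and 0.58. Of the 9 large subunit genes 8 rose, with a median of 0.45, and of the 4 polymerase I genes 3 rose. The 2 genes that did not pass were Polr1a (0.35, SE 0.17, adjusted p = 0.091) and Nle1 (-0.03, SE 0.13, adjusted p = 0.86). Polr1a was at 17.1, 17.9, 21 and 17.7 CPM in cycle-low and 32.8, 17, 23.5 and 21.8 CPM in S-high cells, and was not higher in Helios-deficient mouse 2. Nle1 was at 40.2, 35.4, 33.6 and 38.4 CPM and then at 45.3, 32.8, 30.7 and 31.7 CPM, lower in 3 of 4 mice. The 6 genes with an E-box in their promoter window had log2 differences of 0.45 (Nop2), 0.62 (Utp20), 0.39 (Pes1), 0.61 (Mybbp1a), 0.30 (Wdr43) and -0.03 (Nle1). Nolc1, Nop56 and Nhp2 had no match in their windows, and Rrp12 had no window. Whether the motif goes with the rise was not tested.

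Myc had the smallest of the 30 rises from cycle-low to S-high cells. It was at 156, 164, 206 and 180 CPM and then at 208, 202, 216 and 179 CPM, higher in 3 of 4 mice, with overlapping classes (0.22, SE 0.07, adjusted p = 0.014). The call was lost under 5 of 10 alternatives: without scaling by TMM (0.16, adjusted p = 0.06), with DESeq2 (0.25, adjusted p = 0.061), without Helios-deficient mouse 2 (0.17, adjusted p = 0.11), in CD48-low cells alone (0.12, adjusted p = 0.53) and in cells of the middle depths described below (0.06, adjusted p = 0.74).

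From cycle-low to G2M-high cells, 22 of the 32 genes rose and 1 fell, while 26.3% of the genes tested rose and 26.5% fell. The median of the 32 was 0.38, against -0.04 over all genes. The gene that fell was Myc, which was at 156, 164, 206 and 180 CPM in cycle-low cells and at 154, 135, 130 and 116 CPM in G2M-high cells (-0.37, SE 0.07, adjusted p = 7.5e-05). It was lower in all 4 mice, though hardly so in Helios-deficient mouse 1, whose 154 and 156 CPM kept the classes barely apart. Nolc1 stayed high at 160, 137, 139 and 146 CPM (0.94, SE 0.07, adjusted p = 4.9e-24). Pa2g4 was at 517, 428, 444 and 410 CPM (0.90, SE 0.05, adjusted p = 1e-34). Nhp2 was at 358, 321, 353 and 329 CPM (0.90, SE 0.05, adjusted p = 8.7e-31). In all 3 genes every G2M-high value lay above every cycle-low value. Nop56 was at 320, 285, 286 and 286 CPM (0.66, SE 0.05, adjusted p = 2.1e-22), also without overlap. Rrp12 was at 13.7, 10.7, 16.7 and 16.1 CPM (0.89, SE 0.22, adjusted p = 0.00032), level with its cycle-low value in Helios-deficient mouse 1. Utp20, a large scaffold of the processome, was at 10.3, 9.74, 7.42 and 7.95 CPM in cycle-low and 18.4, 11.4, 11.5 and 13.5 CPM in G2M-high cells (0.70, SE 0.22, adjusted p = 0.0045, lost with DESeq2 at an adjusted p of 0.098). All 5 box H/ACA genes rose here too. The 9 that did not pass were Polr1a, Polr1b, Rrp9, Wdr43, Rcl1, Nop2, Pes1, Ddx18 and Nle1, with values from -0.11 to 0.18; Nle1 (-0.11, adjusted p = 0.43) was lower in all 4 mice, at 34.7, 30.3, 28.9 and 36.4 CPM.

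The S-high and G2M-high classes were also compared directly, in a contrast added after these results were seen. In S-high cells 13 of the 32 genes were higher and 0 lower, while 7.56% of all genes tested were higher. Myc had the largest difference (0.59, SE 0.08, adjusted p = 3.2e-07), followed by Polr1b and Gnl3 (0.39, SE 0.05, adjusted p = 9.5e-09). Gnl3 was at 188, 166, 175 and 181 CPM in cycle-low, 275, 244, 255 and 223 CPM in S-high, and 217, 167, 184 and 196 CPM in G2M-high cells, with G2M-high cells only 0.17 above cycle-low cells (adjusted p = 0.0074). Polr1b was at 28, 34.1, 27.4 and 21.8 CPM in S-high and at 20, 22.4, 19.1 and 16.9 CPM in G2M-high cells, higher in each mouse with a slight overlap (0.50, SE 0.16, adjusted p = 0.018). Nop56 and Nop58 were each higher by 0.32 in S-high cells (adjusted p = 4.3e-08 and 6.5e-07). Nhp2 (0.07), Pa2g4 (0.06) and Npm1 (0.05) did not pass.

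**Figure D3:**
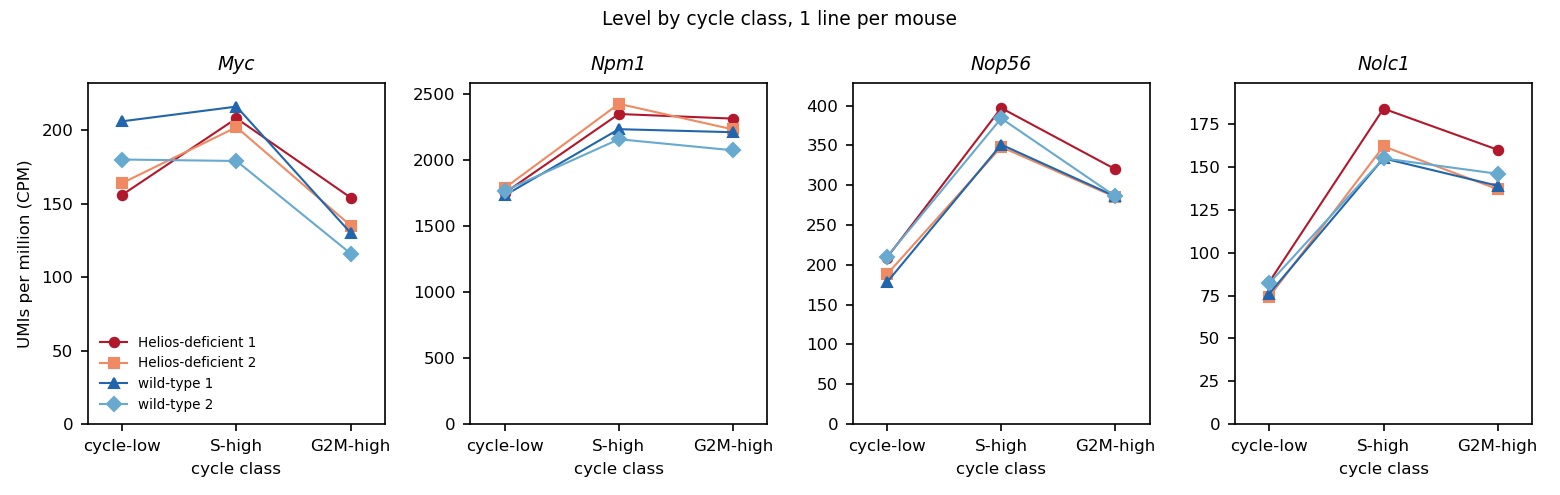
CPM of Myc, Npm1, Nop56 and Nolc1 (y axis, from 0) in cycle-low, S-high and G2M-high cells (x axis), with 1 line per mouse and no error bars. Npm1, Nop56 and Nolc1 are higher in both cycling classes than in cycle-low cells in every mouse, while Myc is lowest in G2M-high cells in every mouse.

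Depth moved with the cycle classes. Median UMIs per cell were 6015 to 6445 in cycle-low, 10500 to 11400 in S-high and 13192 to 15051 in G2M-high cells. Over quintiles of RNA UMIs per cell, the 32 genes together rose from 0.564%, 0.507%, 0.524% and 0.531% of all UMIs in the lowest quintile to 0.92%, 0.815%, 0.803% and 0.798% in the highest. Among cells between the 30th and 70th percentile of RNA UMIs, 12 of the 29 members tested rose and 0 fell in S-high cells (median 0.29), with Nolc1 at 0.77 and Nop56 at 0.71, while 12.2% of the 6472 genes tested rose. In that window 5 rose in G2M-high cells (Nolc1, Nhp2, Pa2g4, Nop56 and Nop10, by 0.20 to 0.49), and Myc (-0.92) and Npm1 (-0.12) fell, with a median of -0.02; of all genes tested there, 10.2% rose and 5.96% fell. How much of the rise goes with RNA content and how much with cycle position was not tested.

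**Figure D4:**
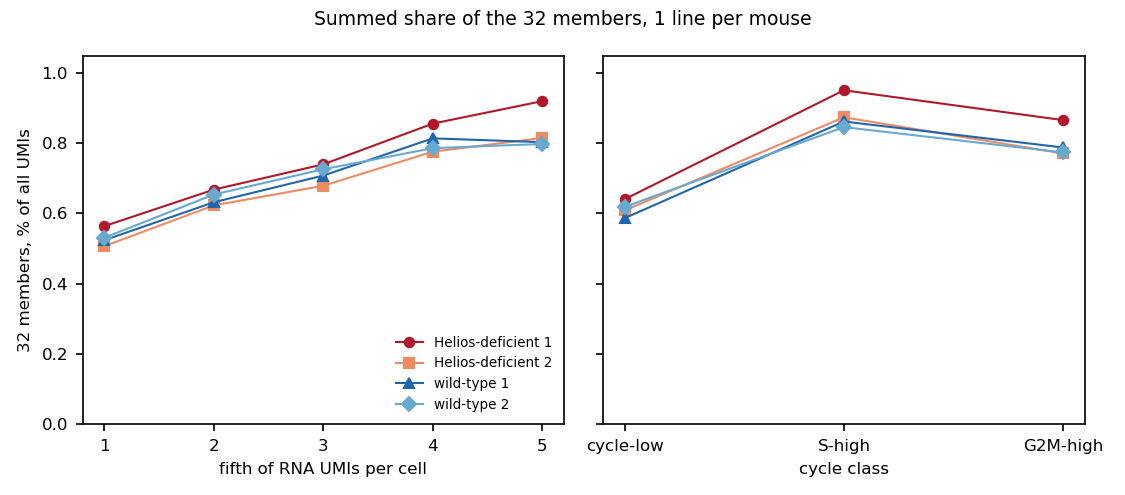
Summed share of the 32 genes among all UMIs in percent (y axis, from 0), by quintile of RNA UMIs per cell (left) and by cycle class (right), with 1 line per mouse and no error bars. The share rises from 0.507% to 0.564% in the lowest quintile to 0.798% to 0.92% in the highest, and is highest in S-high cells in every mouse.

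The gates were then compared with the cycle class held as a term, over sums of mouse, gate and cycle class with at least 10 cells. Cells outside the cycle-low, S-high and G2M-high classes were left out. In the stem cell gate, so were S-high cells of Helios-deficient mouse 1 and G2M-high cells of wild-type mouse 2, each fewer than 10. Of 27 members tested, 4 rose and 2 fell, against 8.85% and 8.74% of the 4827 genes tested. Myc rose by 0.72 (SE 0.1, adjusted p = 4.9e-09), Mybbp1a by 0.49 (SE 0.14, adjusted p = 0.0093), Fbl by 0.20 (SE 0.07, adjusted p = 0.048) and Npm1 by 0.20 (SE 0.04, adjusted p = 2.2e-05). Ebna1bp2 fell by 0.30 (SE 0.1, adjusted p = 0.015) and Nop56 fell by 0.21 (SE 0.08, adjusted p = 0.045). For 23 of the 27 the value was smaller with the cycle term, and the median of the 27 went from 0.19 to 0.06. The 4 that did not become smaller were Myc, Mybbp1a, Wdr43 and Ddx18. The cells used also differed between the fits without and with the term, and their part in these changes was not tested. Nhp2 (0.07), Nolc1 (0.14), Pa2g4 (-0.03), Ncl (0.06), Nop10 (-0.06) and Wdr12 (0.20) had risen without the term and did not pass with it. Polr1a, Polr1b, Rrp12, Utp20 and Heatr1 were too low to be tested in these smaller sums.

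The genes around Myc moved differently. Mycn, the related factor N-Myc, was at 211, 209, 168 and 118 CPM in the stem cell gate and at 49.9, 44.9, 48.5 and 44.4 CPM in CD48-high cells (-1.86, SE 0.1, adjusted p = 3e-28), opposite to Myc in all 4 mice. Mxd4, a repressor that competes for Max, rose by 0.47 (SE 0.15, adjusted p = 0.0093); of 16 genes of the Myc network tested these were the 2 that passed. Among 29 Myc targets outside the nucleolus 17 rose and 2 fell between the gates, with Ran (0.52), Eif4a1 (0.39) and Cdk4 (0.52) higher and Ccnd2 lower (-0.76). The median of that list was 0.22. Of 113 other ribosome biogenesis genes 12 rose and 3 fell, with a median of 0.08, and the exosome subunits Exosc8 (0.64) and Exosc5 (0.38) had the smallest p-values. In S-high cells Lyar (1.04), Exosc8 (1.18) and Mrto4 (0.82) rose while Nop53 fell (-0.76). Mycn was lower in S-high (-0.83) and in G2M-high cells (-1.57) than in cycle-low cells. Mxd4, which rose between the gates, was also lower in both cycling classes in each mouse. Its log2 CPM ratios to cycle-low cells were -1.37 to -0.82 in S-high and -0.96 to -0.75 in G2M-high cells.

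Cells were also classed by their own Myc UMIs after thinning to 3000 UMIs. With 1 or more Myc UMIs in 34.7% to 37.1% and 2 or more in 10.5% to 13.2% of each mouse's cells, this split is coarse. Myc itself set the classes and is not read here. Cells with 2 or more against cells with 0 differed in 2 of the 31 other genes, while 0.224% of the 9828 genes tested were higher. Gnl3 was at 220, 176, 194 and 185 CPM in Myc-zero and at 302, 230, 233 and 258 CPM in Myc-high cells, without overlap (0.40, SE 0.06, adjusted p = 0.00018). Ncl was at 990, 819, 907 and 874 CPM and then at 1142, 985, 909 and 964 CPM, with overlap and nearly level in wild-type mouse 1 (0.16, SE 0.04, adjusted p = 0.045). The call of Ncl was lost with DESeq2 (adjusted p = 0.51), without TMM (0.056), without the filter on low counts (0.052) and without either Helios-deficient mouse or wild-type mouse 2 (0.35, 0.41 and 0.3). The median of the 31 was 0.10, against 0.01 over all genes. Of 51 genes of the G2/M list 16 were lower in Myc-high cells and 0 higher. Within cycle-low cells neither Gnl3 (0.39, adjusted p = 0.15) nor Ncl (0.18, adjusted p = 0.33) passed.

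Last, the genotypes were compared over all cells. None of the 32 genes passed, while 0.794% of the 11592 genes tested did (92 genes); 6 of the 32 (18.8%) had an unadjusted p under 0.05, as did 10.4% of all genes tested. DESeq2 called 0 as well. Of the 32, 28 had a positive value (higher in the mice labelled Helios-deficient), with a median of 0.09 against 0.00 over all genes.

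Helios-deficient mice 1 and 2 had 182 and 164 CPM of Myc, and wild-type mice 1 and 2 had 187 and 169 CPM, so the groups interleaved (-0.04, SE 0.07, 95% interval -0.18 to 0.1, adjusted p = 0.91). The smallest p-values belonged to Pa2g4, Wdr12, Nop10 and Npm1. Pa2g4 was at 440 and 371 CPM against 353 and 341 CPM (0.23, SE 0.07, adjusted p = 0.21). Wdr12 was at 150 and 136 CPM against 127 and 122 CPM (0.20, SE 0.07, adjusted p = 0.29). Nop10 was at 1001 and 885 CPM against 817 and 881 CPM (0.15, SE 0.06, adjusted p = 0.39). Npm1 was at 2134 and 2122 CPM against 2016 and 1978 CPM (0.09, SE 0.04, adjusted p = 0.39). In these 4 genes both Helios-deficient mice lay above both wild-type mice, in Nop10 by little (885 against 881 CPM). That order was found in 10 of the 32 genes (31.2%), beside 19.9% of all genes tested that were higher in both Helios-deficient mice. The opposite order was found in 0 of the 32. Its share over all genes tested is not given here, so whether 0 lies below that share was not tested.

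The positive median rested on 1 mouse. Helios-deficient mouse 1 was above the mean of the 4 mice in 32 of 32 genes and was the highest mouse for 28 of them, while Helios-deficient mouse 2 was above the mean in 6 and was the lowest mouse for 14, as was wild-type mouse 1. Without Helios-deficient mouse 2, 13 of the 32 were called higher (median 0.22), against 2.7% of all genes tested; without Helios-deficient mouse 1, 0 were, against 1.41%, and the median was -0.02. Either fit sets 1 Helios-deficient mouse against 2 wild-type mice, so its spread comes from the wild-type mice alone. The lone mouse is assumed to vary like them, and its difference cannot be told apart from one of the genotype. Summed, the 32 genes made up 0.823% of UMIs in Helios-deficient mouse 1, against 0.74% in Helios-deficient mouse 2 and 0.725% and 0.73% in the others. Helios-deficient mouse 1 also had the smallest share of cycle-low cells (31.5%, against 35.2% in Helios-deficient mouse 2 and 41.2% and 39.1% in the wild-type mice), and 51 of 52 G2/M list genes had a positive genotype value, with a median of 0.22. With equal numbers of cells of each cycle class from every mouse, 0 of the 32 passed, against 0.97% of all genes tested, and the median was 0.10.

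**Figure D5:**
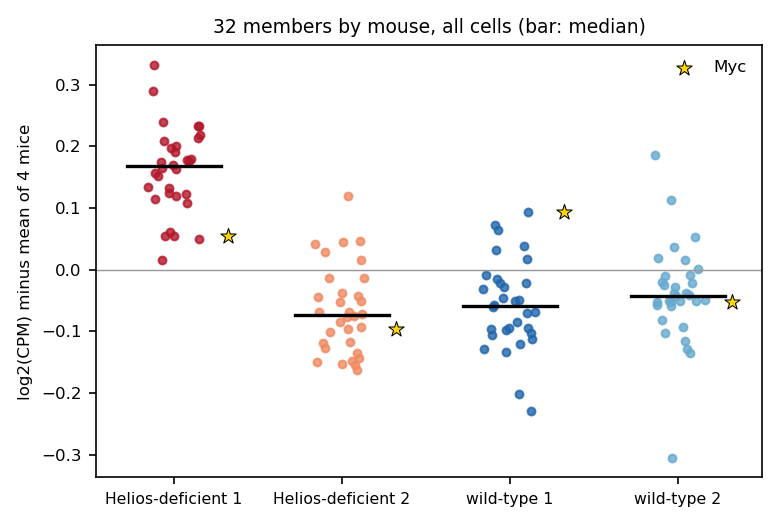
Log2 CPM of each of the 32 genes in all cells of a mouse minus its mean over the 4 mice (y axis), with 1 point per gene, a black bar at the median and a star for Myc. All 32 points of Helios-deficient mouse 1 lie above 0, while the medians of the other 3 mice lie between -0.073 and -0.042.

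The genotypes were also compared within the gates. In CD48-low CD150-high cells 0 of 31 members passed (0.109% of 7312 genes did), with a median of 0.10 and no member under an unadjusted p of 0.05, against 5.89% of all genes. In CD48-high cells 0 of 32 passed (0.676% of 10359 genes did), with a median of 0.14 and 7 (21.9%) under an unadjusted p of 0.05, against 10.2% of all genes; Myc was at 0.21 (SE 0.08, adjusted p = 0.35). The test of whether the gate difference itself differed between genotypes passed for none of the 32 (0.031% of 9684 genes passed that interaction). Of them 1, Fbl, had an unadjusted p under 0.05, against 5.33% of all genes (0.31, SE 0.12, adjusted p = 0.8). For Myc the interaction was 0.31 (SE 0.17, adjusted p = 0.93), its gate rise being larger in the Helios-deficient mice (0.71 and 0.65 as log2 CPM ratios) than in the wild-type mice (0.31 and 0.56) without passing. Elsewhere in the Myc network, Mxd4 was lower in the mice labelled Helios-deficient over all cells (-0.51, SE 0.1, adjusted p = 0.0095). Mxd4 was highest in cycle-low cells, which made up 31.5% and 35.2% of Helios-deficient and 41.2% and 39.1% of wild-type cells. Within cycle-low cells it was at 57.3 and 60 against 76.1 and 78.2 CPM. How far the mix of cycle classes goes with the Mxd4 value was not tested. Over all cells Mycn was higher in the mice labelled Helios-deficient (0.36, SE 0.08, adjusted p = 0.047). Within CD48-high cells the genotypes overlapped in Mycn (49.9 and 44.9 against 48.5 and 44.4 CPM). In the stem cell gate both Helios-deficient mice lay higher (211 and 209 against 168 and 118 CPM). That gate held 11.8% and 13.5% of their cells, against 10.6% and 8.97% for wild-type mice. How far this mix of cells goes with the Mycn value was not tested.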

How the data were processed

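The deposited matrix holds raw UMI counts, whole numbers per gene and barcode, made by the authors; per the file headers the software version was 3.0.2, while Cell Ranger, Seurat 3.0.0 and build mm10 are named in the submitters' processing notes. The aligner settings and the rule behind the authors' list of kept cells are not given in the sources used here. Mice were assigned by the authors' deposited hashtag calls: 3842 single-mouse, 231 doublets (left out by the authors) and 35 negative. No further doublet caller was run. How reads shared with pseudogene copies were counted is not given, so levels of Npm1 and others with such copies may be uncertain.

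UMI counts were summed per mouse and class and tested with edgeR 4.0.16 in R 4.3.3 (robust quasi-likelihood fit, TMM scaling, low counts removed by the tool's default), with the mouse as a covariate between classes of the same mice. DESeq2 1.42.0, no filter, no TMM, each mouse left out, other gates, other depths and other cell choices were the alternatives. The mouse is the replicate (n = 2 per genotype). For cycle, Myc and lineage classes each cell was thinned to 3000 UMIs, which left out 17 of 3470 cells. The lineage classes used shorter marker lists, chosen after the longer ones had put most cells in 1 class. In simulated counts, 100 genes were changed 1.5-fold and 100 others 1.25-fold. Of the first, 81 were recovered for the genotype comparison, 59 for the gates, 74 for the cycle classes and 58 for the Myc classes. Of the second, 25, 17, 20 and 16 were recovered, so changes of that size were mostly missed. Unchanged genes were called as well, 7, 1, 10 and 3 in the same order. Genes at low levels were not among those changed. Precision is limited by the UMIs behind each sum, and CPM of genes with few UMIs varies by counting error alone.

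The members and gene lists were chosen with earlier results of these data known. Genes named with values for each mouse are Myc, the 6 called members with the largest change in a comparison and those against the direction of most; of other lists, up to 4 with the smallest p. Members called but outside those 6, Gnl3 across the cycle classes and the genes of the genotype comparison were added after their values were seen. Promoter windows and gene positions came from RefSeq tables of GRCm38.p6, the assembly behind mm10. All value columns were mapped to their library, and 0 were left unmapped. The summed level of the B cell marker list is not reported here.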

Additional observations from a re-analysis of the deposited data

Results flagged for a closer look

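In 5 of 128 checks of a member in a comparison, both Helios-deficient mice moved one way and both wild-type mice the other. The share of all genes that did so is not given here, so whether 5 exceeds it was not tested. Some log2 ratios were near 0. In Helios-deficient mouse 1, Bop1 was at -0.02 between the gates and Polr1b at 0.02 in G2M-high cells. Between the Myc classes, Bop1 was at 0.01 in wild-type mouse 1 and Dkc1 at -0.02 in wild-type mouse 2. For CD48-high against CD48-low CD150-high cells, Bop1 had mean log2 ratios of -0.19 in the Helios-deficient and 0.22 in the wild-type mice, a difference of -0.42; the fitted interaction of genotype and gate was -0.41 (SE 0.27, adjusted p = 0.93 with edgeR) and did not pass. The other 4 differences were not tested. From cycle-low to G2M-high cells, Pes1 had -0.09 and 0.21, a difference of -0.3, and Polr1b had 0.17 and -0.21, a difference of 0.38. Between Myc-high and Myc-zero cells, Dkc1 had 0.17 and -0.03, a difference of 0.2, and Bop1 had -0.28 and 0.15, a difference of -0.43.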

How the results depend on the processing

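Of the values for named members under an alternative, 245 kept their direction and their side of the threshold, 23 lost the call, 4 gained it and 2 reversed; of the counts and medians, 93 stayed close (a count within 1.5 times, a median within 1 SD of the mice's medians) and 31 moved. Between the gates, the cycle term gave 4 higher, 2 lower and a median of 0.06, tertiles within quintiles of RNA UMIs gave 2, 2 and 0.02, quartiles gave a median of 0.24, and no TMM gave 1 lower (Nle1, -0.41, adjusted p = 0.039). From cycle-low to S-high cells, CD48-low cells alone gave 17 higher (median 0.46) and cells of the middle depths 12 (median 0.29). For G2M-high cells these gave 10 higher, 2 lower and a median of 0.20, and 5, 2 and -0.02. Without TMM the median there was 0.31. For CD48-low cells alone the share of all genes called is not given here. Whether the 17 and the 10 higher members exceed that share was therefore not tested. For Myc-high cells, 1 other member was higher with DESeq2, with no TMM and with no filter, and 0 in cycle-low cells alone (median 0.16); leaving out each mouse gave 1 to 2 and medians of 0.04 to 0.12, the lower count arising when Helios-deficient mouse 2 or wild-type mouse 2 was absent. For genotype, no filter gave 1 higher (Pa2g4), and leaving out each mouse, which leaves 1 mouse in an arm that is assumed to vary like the other arm, gave 0 to 13 and medians of -0.02 to 0.22; Myc (-0.12 to 0.04 over these) turned positive, to 0.04 and 0.03, when Helios-deficient mouse 2 or wild-type mouse 1 was left out. No paired analysis was possible between genotypes because nothing in the labels pairs the mice; comparisons of classes kept the mouse as a block. The low genes (Utp20, Rrp12, Heatr1, Polr1a, Polr1b) are limited by depth, with sums of as few as 2 UMIs (Utp20 in the stem cell gate of wild-type mouse 2).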
